A study of Mus musculus with 8 samples.

Results

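The colony-stimulating factors and their receptors were examined in mouse aorta as 9 genes, taken by symbol from the deposited tables of 21859 genes: the ligands *Csf1*, *Il34*, *Csf2* and *Csf3* and the receptor chains *Csf1r*, *Csf2ra*, *Csf2rb*, *Csf2rb2* and *Csf3r*. All 9 were present, each on 1 row. RNA came from the aortas of 4 ApoE-/- and 4 WT mice, all of them male, 40 weeks old, on the C57BL/6 background and fed normal chow. ApoE-/- mice lack apolipoprotein E in every tissue and develop atherosclerosis, and each library held the total RNA of 1 whole aorta, ribodepleted and sequenced with its strand. The question was which genes of this family differ between an atherosclerosis-prone and a healthy aorta. Because whole vessels were sequenced, fewer cells of a type and less RNA per cell cannot be told apart in any value given here.

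CSF1 (macrophage colony-stimulating factor) and interleukin-34 bind the same receptor, CSF1R, a tyrosine kinase on which monocytes and macrophages depend for survival and proliferation. CSF2 (GM-CSF) binds the alpha chain CSF2RA, which signals through the common beta chain CSF2RB, shared with the receptors for interleukin-3 and interleukin-5, to JAK2 and STAT5. Mice carry an additional beta chain gene, *Csf2rb2*, whose product works with interleukin-3 alone. CSF3 (G-CSF) signals through CSF3R and drives the production and release of neutrophils. In the arterial wall, smooth muscle cells, endothelial cells and fibroblasts are known to make CSF1, while the receptors are carried mostly by myeloid cells.

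Between 18375898 and 23940156 read pairs were counted on genes per library, with 23240995 or more in each ApoE-/- library and at most 21664598 in each WT library. These were 32.3% to 35.6% of all pairs in ApoE-/- and 27.9% to 30.2% in WT libraries, pairs outside annotated genes were 50.1% to 54.7% against 56.4% to 58.0%, and mitochondrial genes took 2.84% to 5.16% against 5.52% to 6.92% of the pairs on genes. None of these shares overlapped between genotypes, and their part in the differences reported here was not tested. *Apoe* itself was at 14.7 to 36.3 CPM (counts per 1e+06 pairs on genes, scaled with TMM factors) in ApoE-/- and at 536 to 857 CPM in WT aortas. Replicate 1 of the ApoE-/- group stood apart from the other ApoE-/- libraries. Its 10 smooth muscle markers summed to 5559 CPM against 13682 to 22785 CPM in the other 3 ApoE-/- aortas, and its 10 neuron and Schwann cell markers to 4998 CPM against 88.8 to 446 CPM. The members were therefore also fitted without this library, and the gene lists were not.

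Levels of different genes were compared per kb of exon. In WT aortas, *Csf1* had the highest level of the 9 genes at 13.4 ± 1.40 CPM per kb (SD, n = 4), followed by *Csf1r* at 10.4 ± 1.91 CPM per kb, and the ranges of these 2 genes overlapped. *Il34* was next at 5.37 ± 0.68 CPM per kb, and its range overlapped that of *Csf2rb*, at 4.91 ± 0.70 CPM per kb. *Csf2ra* followed at 3.66 ± 0.16, *Csf2rb2* at 2.28 ± 0.26 and *Csf3r* at 0.463 ± 0.114 CPM per kb, each below the range of the gene before it. *Csf2* and *Csf3* closed the order at 0.104 ± 0.126 and 0.0443 ± 0.0349 CPM per kb, with overlapping ranges. In ApoE-/- aortas *Csf1r* (18.9 ± 8.85 CPM per kb) and *Csf1* (17.4 ± 3.86 CPM per kb) remained at the top, again with overlap. *Il34*, at 4.23 ± 1.86 CPM per kb, came after all 3 chains of the GM-CSF and interleukin-3 receptors there (8.73 ± 1.39 for *Csf2rb*, 6.49 ± 1.81 for *Csf2ra* and 6.45 ± 2.01 for *Csf2rb2*), and its range of 2.94 to 6.94 CPM per kb overlapped those of *Csf2ra* and *Csf2rb2*. The range of *Csf2rb*, which began at 6.98 CPM per kb, lay just above it.

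The 5 receptor chains lay higher in every ApoE-/- aorta than in any WT aorta, whereas *Csf1* and *Il34*, the ligands with more than a few counts, overlapped between genotypes. Of the 9 genes, 7 passed the filter on low counts, each with at least 21 counts in every aorta, and *Csf2* and *Csf3* did not. *Csf3r* and *Csf2rb2* had an edgeR quasi-likelihood adjusted p under 0.05, both higher, which makes 2 of the 7 tested, against 0.464% of the 15077 genes tested (0.371% higher and 0.0929% lower). In DESeq2, an alternative fit, *Csf2ra* and *Csf2rb* passed as well, so that 4 of 7 were called, all higher, where 4.97% of the genes given an adjusted p were, 3.23% of them higher. Without ApoE-/- replicate 1, edgeR called the same 4 members, where it called 3.91% of all genes. No overlap in this direction held for 5.41% of all genes tested, in the other for 3.3% and in either for 8.71%.

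**Figure D1:**
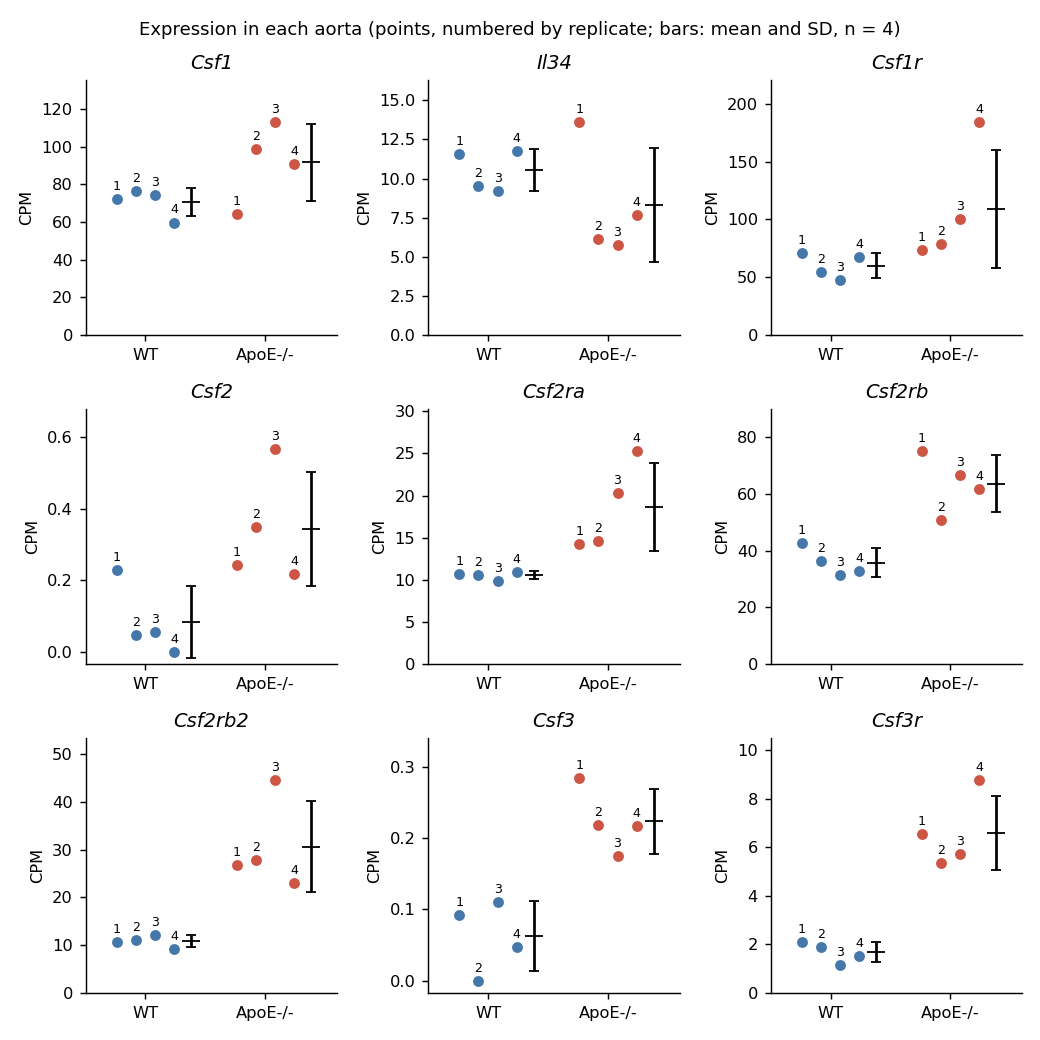
Expression of the 9 genes in CPM (linear axis, own scale per panel) in each of the 4 WT (blue) and 4 ApoE-/- (red) aortas, with the mean and SD beside the points, which are numbered by replicate. The 5 receptor chains and *Csf3* show no overlap between genotypes, and *Csf1*, *Il34* and *Csf2* do.

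*Csf3r* encodes the G-CSF receptor (ENSMUSG00000028859.14, chromosome 4, 126024550 to 126044440 on the plus strand of GRCm38). It was the member with the largest fold change among the 7 tested. Replicates 1 to 4 had 6.53, 5.34, 5.71 and 8.77 CPM in ApoE-/- and 2.11, 1.87, 1.16 and 1.53 CPM in WT aortas. Every ApoE-/- aorta was thus at more than double the highest WT value. By edgeR this was a log2 difference of 1.97 (SE 0.26) with an adjusted p of 0.0379, and by DESeq2 one of 1.96 (adjusted p = 2.06e-09). By unadjusted p it ranked 18 among all genes tested. In edgeR, leaving out any 1 of the 8 aortas gave log2 values of 1.80 to 2.11, but an adjusted p of 0.0508 to 0.149 for every aorta except ApoE-/- replicate 1 (0.0109). In DESeq2 all 8 such fits stayed under 0.05.

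*Csf3r* is best known from neutrophils, whose transcripts were scarce. Of 14 neutrophil markers, 4 passed the filter. EdgeR called none, 2 had an unadjusted p under 0.05 (against 11.4% of all genes) and DESeq2 called 2 higher (against 3.23%). In both cases these were *S100a9* and *Il1r2*. Each had 1 WT library over the filter level and passed it through the ApoE-/- group, where it was high. Their calls therefore say nothing of the neutrophil list. The summed level of the 14 was 10.5 to 30.7 CPM in ApoE-/- and 6.51 to 12.3 CPM in WT aortas, with overlap, whereas their mean log2(CPM + 0.5) was 0.11 ± 0.33 against −0.30 ± 0.08 (SD, n = 4), without overlap. *S100a9*, an alarmin of neutrophils and monocytes, had 2.05 ± 1.21 CPM in ApoE-/- and 0.427 ± 0.033 CPM in WT aortas (2.25 on the log2 scale, SE 0.45, adjusted p = 0.0696 in edgeR and 0.00174 in DESeq2). *Il1r2*, a decoy receptor for interleukin-1, had 1.46 ± 0.70 against 0.418 ± 0.179 CPM, with overlap (1.78, SE 0.47, adjusted p = 0.149 in edgeR and 0.0396 in DESeq2). *Mmp9* and *Elane*, the other markers tested, had edgeR adjusted p values of 0.734 and 0.839. Among the 10 markers under the filter, *S100a8* (1.29 against 0.279 CPM) and *Mmp8* (0.770 against 0.0745 CPM) were higher in ApoE-/- without overlap, and the other 8 overlapped or were at 0. *Ly6g*, *Mpo* and *Camp* had at most 0.0879 CPM on average in either genotype, and *Stfa2l1* had no count in any library. The log2 ratio of *Csf3r* to this mean was 2.58 ± 0.07 in ApoE-/- and 1.00 ± 0.35 in WT aortas, but with 10 of 14 markers under the filter the mean is held near the 0.5 CPM added, and the ratio then follows *Csf3r* itself. The part of neutrophils in the *Csf3r* difference was not tested.

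*Csf2rb2* and *Csf2rb* are neighbouring paralogs on chromosome 15 of GRCm38. *Csf2rb2* (ENSMUSG00000071714.7) spans 78282507 to 78305721 on the minus strand and *Csf2rb* (ENSMUSG00000071713.6) 78325752 to 78353847 on the plus strand, with 20030 bases between them. Their coding sequences were 95.2% identical over 2631 aligned positions, and 18.9% of all windows of 50 bases, the read length, in transcript Csf2rb-201 occurred unchanged in Csf2rb2-201. Pairs with both ends in such windows cannot be assigned to a single gene by their sequence. Since only uniquely aligned pairs were counted, such pairs would be missing from both genes. This lowers both levels by an amount that was not measured. The stretch of 60 coding bases with the most differences is shown as the clearest example of bases by which reads tell the genes apart, with the 13 differing bases in capitals.
Csf2rb-201, coding bases 304 to 363: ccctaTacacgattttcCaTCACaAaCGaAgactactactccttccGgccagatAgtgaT
Csf2rb2-201, coding bases 307 to 366: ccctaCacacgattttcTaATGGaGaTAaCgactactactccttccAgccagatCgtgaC

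*Csf2rb2*, the beta chain of the interleukin-3 receptor, had 26.8, 27.9, 44.6 and 23.1 CPM in ApoE-/- replicates 1 to 4 and 10.7, 11.1, 12.2 and 9.19 CPM in WT replicates 1 to 4. The genotypes were far apart, and ApoE-/- replicate 3 was the highest. By edgeR the log2 difference was 1.50 (SE 0.22) with an adjusted p of 0.0396, and by DESeq2 1.49 (adjusted p = 3.67e-07). By limma-voom, another alternative fit, it was 1.46 and missed the threshold (adjusted p = 0.0605). Leaving out 1 aorta at a time gave 1.26 to 1.61, with an edgeR adjusted p of 0.0584 to 0.161 for every aorta except ApoE-/- replicate 1 (0.0133).

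*Csf2rb*, the common beta chain, had 75.0, 50.8, 66.5 and 61.8 CPM in ApoE-/- and 42.7, 36.3, 31.4 and 32.6 CPM in WT replicates 1 to 4. Here ApoE-/- replicate 1 was the highest of the 8 aortas. At 0.83 on the log2 scale (SE 0.15), it missed the threshold in edgeR (adjusted p = 0.0593) and passed in DESeq2 (0.82, adjusted p = 8.86e-05). Without ApoE-/- replicate 1 edgeR gave 0.74 (adjusted p = 0.0327).

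Within the beta chain pair, *Csf2rb* made up 72.1%, 68.0%, 62.6% and 69.8% of the summed level per kb in WT replicates 1 to 4. In ApoE-/- replicates 1 to 4 it made up 64.6%, 54.3%, 49.3% and 63.6%. The means were 68.1% ± 4.05 and 57.9% ± 7.38 (SD, n = 4), a difference of −10.2 percentage points, and replicates 1 and 4 of ApoE-/- lay inside the WT range. As a share of counts, which uses no exon length, the means were 76.6% ± 3.37 in WT and 67.7% ± 6.65 in ApoE-/- aortas, also with overlap.

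**Figure D2:**
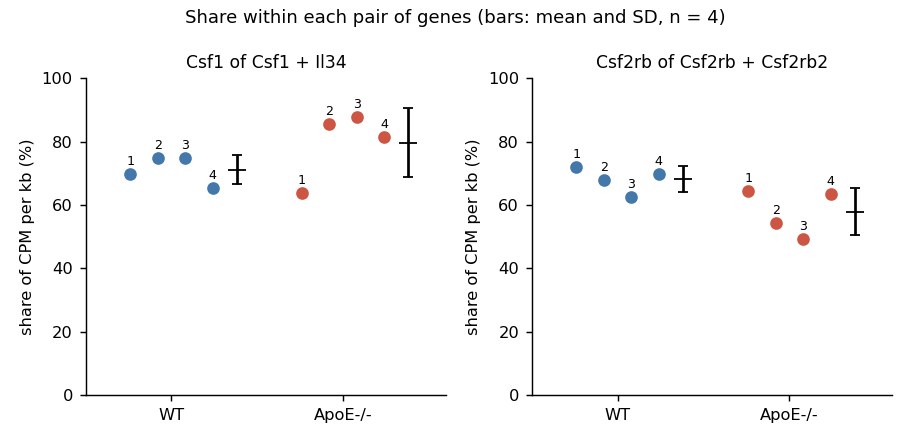
Share of *Csf1* in the summed level per kb of *Csf1* and *Il34* (left) and of *Csf2rb* in that of *Csf2rb* and *Csf2rb2* (right), in percent, for each aorta, with mean and SD. Both shares overlap between genotypes: ApoE-/- replicate 1 has the lowest *Csf1* share of the 8 aortas (63.7%), and ApoE-/- replicate 3 the lowest *Csf2rb* share (49.3%).

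*Csf2ra*, the alpha chain specific to GM-CSF (ENSMUSG00000059326.7, chromosome 19, 61223957 to 61228429, minus strand), was nearly constant among WT mice, at 10.7, 10.5, 9.86 and 11.0 CPM. ApoE-/- replicates 1 to 4 had 14.3, 14.7, 20.3 and 25.3 CPM, all of them higher. At 0.82 on the log2 scale (SE 0.19), it missed the threshold in edgeR (adjusted p = 0.109). It passed in DESeq2 (adjusted p = 0.00964) and in edgeR without ApoE-/- replicate 1 (log2 0.93, adjusted p = 0.032). With 1 aorta left out at a time, the DESeq2 call held in 3 of 8 fits, namely without ApoE-/- replicate 1, 2 or 4, and was lost without ApoE-/- replicate 3 (adjusted p = 0.0641) and without each WT aorta (0.0546 to 0.0714).

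*Csf1r* (ENSMUSG00000024621.16, chromosome 18, 61100598 to 61132149, plus strand) had 74.0, 78.8, 100.1 and 184 CPM in ApoE-/- and 70.8, 54.3, 47.6 and 67.8 CPM in WT replicates 1 to 4. The genotypes did not overlap, but ApoE-/- replicate 1 lay close to WT replicate 1, and ApoE-/- replicate 4 was far above the rest. At 0.86 on the log2 scale (SE 0.30), *Csf1r* passed neither in edgeR (adjusted p = 0.295) nor in DESeq2 (adjusted p = 0.116). Leaving out ApoE-/- replicate 4 lowered it to 0.49, and leaving out ApoE-/- replicate 1 raised it to 1.01 (edgeR adjusted p = 0.103, DESeq2 0.0147). *Csf1r* shares 3446 exon bases with *Hmgxb3* on the opposite strand. *Hmgxb3* had 53.8 ± 2.73 CPM in ApoE-/- and 57.7 ± 1.98 CPM in WT aortas (log2 −0.10, edgeR adjusted p = 0.750). The names of the deposited tables describe the counts as stranded, but the strand option of the counting is not given in the sources used here.

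**Figure D3:**
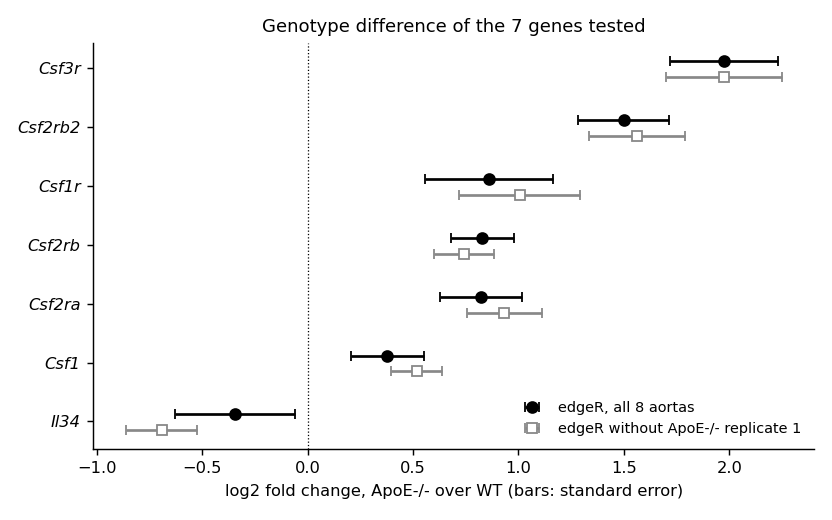
Log2 fold change, ApoE-/- over WT, of the 7 genes tested, with standard errors, for all 8 aortas (filled circles) and without ApoE-/- replicate 1 (open squares). *Csf3r* and *Csf2rb2* lie farthest to the right, and *Il34* moves from −0.34 to −0.69 when this library is left out.

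*Csf1* (ENSMUSG00000014599.10, chromosome 3, 107741048 to 107760469, minus strand) had 64.4, 98.7, 113 and 90.8 CPM in ApoE-/- and 72.1, 76.2, 74.2 and 59.7 CPM in WT replicates 1 to 4. ApoE-/- replicates 2 to 4 were above every WT aorta and replicate 1 was below 3 of them. In edgeR the log2 difference was 0.38 (SE 0.17) with an adjusted p of 0.479. Without ApoE-/- replicate 1 it was 0.52 and passed in DESeq2 (adjusted p = 0.0068) but not in edgeR (adjusted p = 0.0594).

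*Il34* (ENSMUSG00000031750.15, chromosome 8, 110741829 to 110805924, minus strand) had 13.6, 6.12, 5.75 and 7.68 CPM in ApoE-/- and 11.6, 9.55, 9.20 and 11.8 CPM in WT replicates 1 to 4. ApoE-/- replicate 1 was the highest of the 8 aortas and the other 3 were the lowest. In edgeR the log2 difference was −0.34 (SE 0.28) with an adjusted p of 0.767, and −0.69 (SE 0.17, adjusted p = 0.0666) without that library, where DESeq2 gave −0.70 (adjusted p = 0.0053). Leaving out ApoE-/- replicate 2 or 3 made it smaller, at −0.22 and −0.20 in edgeR. *Ptprz1* and *Sdc1*, which encode alternative binding partners of interleukin-34, had adjusted p values of 0.654 and 0.525 in edgeR.

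The ligands of CSF1R ran against each other across the vessels. Over the 8 aortas, log2 *Csf1* and log2 *Il34* had a Pearson r of −0.96 (exact permutation p = 0.000471) and a Spearman rho of −0.95 (exact permutation p = 0.00114). This was 1 of 21 pairs among the 7 genes, and the adjusted values were 0.00495 and 0.012. By r 6 and by rho 5 of the 21 pairs had an adjusted p under 0.05 (exact permutation), and apart from *Csf1* and *Il34* these were pairs of receptor chains, whose levels fall into separate clusters by genotype, so that no pooled r is given for them. Without the 2 aortas farthest from the median *Csf1* level, ApoE-/- replicates 2 and 3, r was −0.88, and after subtracting each genotype's mean it was −0.95. The pair was singled out after its values were seen. *Csf1* supplied 71.2% ± 4.60 of the summed level per kb in WT and 79.7% ± 11.0 in ApoE-/- aortas (SD, n = 4), a difference of 8.49 percentage points with overlap. The overlap came from ApoE-/- replicate 1 (63.7%), since replicates 2 to 4 had 85.7%, 87.9% and 81.4% and the WT range was 65.3% to 75.0%, and without it the difference was 13.8 percentage points. Cell-type markers moved along with both genes. The 2 aortas with the highest *Csf1*, ApoE-/- replicates 3 and 2, had the lowest summed levels of 10 adipocyte markers (3098 and 4553 CPM against 6602 to 13123 CPM in the other 6), and ApoE-/- replicate 1 had the lowest smooth muscle markers. Their part in the relation was not tested.

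**Figure D4:**
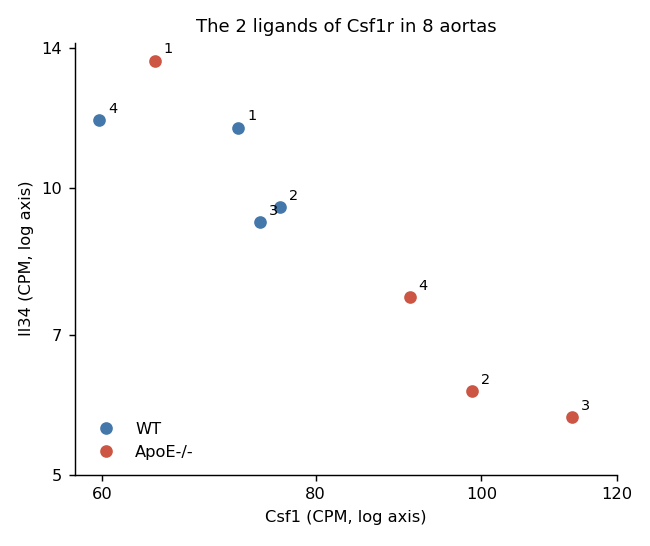
*Il34* against *Csf1* in CPM (both axes logarithmic) in 4 WT (blue) and 4 ApoE-/- (red) aortas, numbered by replicate. Aortas with more *Csf1* have less *Il34*, from ApoE-/- replicate 1 and WT replicate 4 at the upper left to ApoE-/- replicates 2 and 3 at the lower right.

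*Csf2* and *Csf3*, the GM-CSF and G-CSF genes, were near the limit of counting. *Csf2* (ENSMUSG00000018916.5, chromosome 11, 54247271 to 54249667, minus strand) counted 6, 8, 13 and 5 pairs in the ApoE-/- and 5, 1, 1 and 0 in the WT aortas, in order of replicate. Scaled to CPM, the genotypes overlapped, since WT replicate 1 (0.229 CPM) lay above ApoE-/- replicate 4 (0.217 CPM; exact permutation test, two-sided p = 0.0571). The 32 and 7 summed counts correspond to a ratio of 4.01 (95% interval 1.74 to 10.8). *Csf3* (ENSMUSG00000038067.2, chromosome 11, 98701263 to 98703629, plus strand) counted 7, 5, 4 and 5 pairs in the ApoE-/- and 2, 0, 2 and 1 in the WT aortas, without overlap (exact permutation test, two-sided p = 0.0286, the smallest that 4 against 4 allow). Its 21 and 5 summed counts correspond to a ratio of 3.69 (95% interval 1.35 to 12.5). These exact binomial intervals cover counting error only, and a library with 0 counts allows up to 0.144 CPM (*Csf2*, WT replicate 4) or 0.140 CPM (*Csf3*, WT replicate 2). With no filter on low counts, edgeR gave adjusted p values of 0.402 for *Csf2* and 0.336 for *Csf3*.

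The signalling partners of the receptors were described with 2 lists, and the median log2 fold change of all genes tested was 0.05. Of 21 genes acting below CSF1R, 20 had a positive and 1 a negative log2 fold change, with a median of 0.39, and none passed in edgeR, while 9 of 21 had an unadjusted p under 0.05, against 11.4% of all genes tested. DESeq2 called 5, all higher, against 3.23% of all genes. Among them were *Tyrobp*, *Ptpn6*, *Pik3cd* and *Pik3cg*, here named after their values were seen. *Tyrobp*, an adaptor of myeloid receptors, had 29.6 ± 18.8 CPM in ApoE-/- and 7.22 ± 1.21 CPM in WT aortas (SD, n = 4, log2 2.03, SE 0.42, edgeR adjusted p = 0.0796). The most abundant gene of the list, *Pik3r1*, a regulatory subunit of PI3-kinase that many cell types use, differed by −0.10 on the log2 scale (edgeR adjusted p = 0.836).

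Of 21 genes linked to the beta chains and CSF3R, 19 were tested, 13 with a positive and 6 with a negative value and a median of 0.11, and none passed in edgeR, while 6 of 19 had an unadjusted p under 0.05, again against 11.4% of all genes. The kinases and transcription factors that carry the signal, *Jak2*, *Stat5a* and *Stat5b*, had log2 values of −0.12, 0.38 and 0.05 (adjusted p = 0.820, 0.396 and 0.919). *Stat3*, a main transcription factor of CSF3R, had 279 ± 48.4 CPM in ApoE-/- and 209.6 ± 9.42 CPM in WT aortas, without overlap (log2 0.41, SE 0.14, adjusted p = 0.282 in edgeR and 0.118 in DESeq2). *Socs3*, a feedback inhibitor of cytokine receptors that include CSF3R, had 28.6 ± 8.66 CPM in ApoE-/- and 11.0 ± 2.45 CPM in WT aortas, without overlap (log2 1.38, SE 0.26, edgeR adjusted p = 0.0635, DESeq2 0.000141). *Cish*, a target of STAT5, had 12.4 ± 5.18 against 23.6 ± 13.3 CPM (adjusted p = 0.495). *Irf5* and *Irf4* were the other genes called by DESeq2, at log2 1.18 and −1.25 (edgeR adjusted p = 0.087 and 0.235). DESeq2 thus called 2 higher and 1 lower of 19, against 4.97% of all genes in either direction and 3.23% higher. *Mcl1* and *Ptpn11*, the most abundant genes of the list, had adjusted p values of 0.873 and 0.833. *Il3ra*, the interleukin-3 receptor alpha chain that pairs with *Csf2rb2*, had 6.97 ± 0.92 against 5.02 ± 0.31 CPM, without overlap (log2 0.47, SE 0.15, edgeR adjusted p = 0.237).

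Among 8 further ligands and receptors of blood cells, none of the 7 tested passed in edgeR or DESeq2, and 1 of 7 had an unadjusted p under 0.05 in edgeR, a share near the 11.4% of all genes. *Kit* and *Flt3*, receptor kinases related to CSF1R, had 21.6 ± 2.51 against 21.7 ± 5.07 CPM and 2.25 ± 1.28 against 1.02 ± 0.24 CPM, each with overlap. *Kitl* and *Ptprz1*, the most abundant of the list, had adjusted p values of 0.715 and 0.654. *Il3*, at 0.0870 and 0.0812 CPM on average, was not tested, and *Il5* had 0.683 ± 0.297 against 0.580 ± 0.162 CPM.

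Of 12 inducers of the colony-stimulating factors, 10 were tested and all 10 had positive values, with a median of 0.46. *Il6* alone passed in edgeR (adjusted p = 0.0396), with 4.71 ± 1.67 CPM in ApoE-/- and 0.153 ± 0.146 CPM in WT aortas, but it had passed the filter on low counts through the ApoE-/- group alone and so had to differ. With it, 5 of 10 had an unadjusted p under 0.05, against 11.4% of all genes, and DESeq2 called 3, all higher, against 3.23% of all genes. The 5 also included *Tnf*, which had 1 WT library over the filter level and passed through the ApoE-/- group. Genes that entered in this way are counted here, so neither count is a test of the list. The other DESeq2 calls were *Il1b* and *Relb*, an NF-kB subunit (log2 0.51, adjusted p = 0.0477 in DESeq2). *Il1b* had 2.52 ± 0.62 CPM in ApoE-/- and 0.741 ± 0.354 CPM in WT aortas (log2 1.75, SE 0.36, edgeR adjusted p = 0.0753), without overlap, and *Tnf* 0.848 ± 0.132 against 0.300 ± 0.145 CPM (adjusted p = 0.124). *Nfkb1* and *Rela*, the most abundant, had adjusted p values of 0.896 and 0.802. *Il17a* had no count in any library.

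Of 13 myeloid transcription factors, 11 were tested, 7 with positive and 4 with negative values. EdgeR called 1, higher, against 0.371% of all genes, and 3 of 11 had an unadjusted p under 0.05, against 11.4%. DESeq2 called 3, all higher, against 3.23% of all genes. The edgeR call was *Runx1*, with 45.4 ± 17.9 CPM in ApoE-/- and 11.8 ± 1.96 CPM in WT aortas (log2 1.95, SE 0.27, adjusted p = 0.0381). *Spi1*, which encodes PU.1, an activator of the receptor genes in myeloid cells, had 10.8 ± 4.88 against 3.58 ± 0.59 CPM, without overlap (log2 1.59, SE 0.32, edgeR adjusted p = 0.0705, DESeq2 0.000366). *Irf8* had 17.6 ± 3.64 against 8.22 ± 1.30 CPM (log2 1.10, SE 0.19, adjusted p = 0.0526). *Cebpa* and *Nr4a1*, the most abundant, had adjusted p values of 0.932 and 0.595.

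Promoter sequences of RefSeq (GRCm38.p6) were given for 5 of the 9 genes. The letters GAGGAA, the core bound by PU.1, were searched on both strands of the 250 bases before the RefSeq start site. For *Csf3r* and *Csf2ra* this site lies inside the gene span given above, so that their cores lie within that span or across its start. They were present in 3 of these 5, namely in *Csf2ra*, *Csf2rb2* and *Csf3r*, and in 23.3% of 32851 promoters. The 3 sequences are shown because they belong to receptor chains that were higher together in every ApoE-/- aorta, with the core in capitals. Each is written 5′ to 3′ on the strand of its gene, where TTCCTC is the same core on the other strand.
Csf2ra, chr19:61228419-61228668, minus strand: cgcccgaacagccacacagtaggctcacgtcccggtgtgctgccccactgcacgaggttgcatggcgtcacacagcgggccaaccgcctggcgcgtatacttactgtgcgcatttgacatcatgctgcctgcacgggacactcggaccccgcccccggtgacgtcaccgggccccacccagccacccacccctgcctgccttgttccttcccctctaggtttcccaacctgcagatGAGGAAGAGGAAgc
Csf2rb2, chr15:78305722-78305971, minus strand: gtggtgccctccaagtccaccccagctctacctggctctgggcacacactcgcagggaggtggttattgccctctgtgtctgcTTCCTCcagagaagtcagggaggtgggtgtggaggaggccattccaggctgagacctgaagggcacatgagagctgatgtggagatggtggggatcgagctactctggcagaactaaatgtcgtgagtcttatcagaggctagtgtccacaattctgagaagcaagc
Csf3r, chr4:126024409-126024658, plus strand: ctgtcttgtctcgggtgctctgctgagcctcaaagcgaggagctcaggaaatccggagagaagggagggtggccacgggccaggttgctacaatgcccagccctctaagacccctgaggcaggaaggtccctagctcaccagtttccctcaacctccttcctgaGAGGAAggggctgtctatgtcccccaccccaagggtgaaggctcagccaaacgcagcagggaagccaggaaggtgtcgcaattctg
*Csf2ra* held 2 cores in a row, from 14 and 8 bases before the RefSeq start site. Of the other letters searched, TTGCNNAA (C/EBP) was in 1 of 5 promoters and 9.56% of all, the NF-kB core in 3 of 5 and 45.8% of all, and TGANTCA (AP-1) in 0 of 5 and 6.75% of all. A match of letters is a description and no evidence of binding.

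Macrophage markers were higher as well. Of 23 macrophage genes, 22 had positive values, with a median log2 fold change of 1.66, edgeR called 5 and DESeq2 16, all higher, and 18 did not overlap between genotypes, against 0.371%, 3.23% and 5.41% of all genes. *Cd5l*, at 115 ± 117 CPM in ApoE-/- and 0.251 ± 0.113 CPM in WT aortas, is in the last 2 counts and passed the filter through the ApoE-/- group alone. *Itgax* (CD11c) differed by 4.44 on the log2 scale (SE 0.61, edgeR adjusted p = 0.038), *Trem2*, a lipid receptor of foam cells, 4.10 (adjusted p = 0.0434), *Fcgr1* 2.32 and *Cx3cr1* 2.16 (adjusted p = 0.0355 for both). *Lgmn*, a lysosomal protease, was the fifth. The 5 that overlapped were *Mertk*, *Cd163*, *Lyve1*, *Timd4* and *Folr2*, at log2 values of 0.20, 0.01, 0.07, −0.04 and 0.72 (edgeR adjusted p = 0.585 to 0.999). The last 4 are known from resident macrophages, as is *Mrc1*, which did not overlap (0.92, adjusted p = 0.359). The 23 genes summed to 771 to 3228 CPM in ApoE-/- and 578 to 673 CPM in WT aortas, lowest in replicate 1 and highest in replicate 4 of ApoE-/-, as for *Csf1r* itself.

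The log2 ratio of *Csf1r* to the mean log2 level of these 23 markers was 1.95, 1.25, 1.26 and 1.34 in ApoE-/- and 2.48, 2.23, 2.21 and 2.46 in WT replicates 1 to 4. The difference was −0.90 (exact permutation test, two-sided p = 0.0286), all 4 ApoE-/- aortas being lower. With the summed CPM of the markers in place of their mean it was −0.57 (p = 0.0857 by the same exact permutation test), and with 6 markers only, *Adgre1*, *Mertk*, *Fcgr1* and the 3 C1q genes, −0.50 (p = 0.0571), both with overlap. The mean gives equal weight to *Cd5l*, *Trem2* and *Itgax*, so that the size and the call of this difference depended on the markers used. The marker level itself was 5.22 ± 0.80 in ApoE-/- and 3.54 ± 0.13 in WT aortas (SD, n = 4), a difference of 1.68 without overlap. Any gene that rose less than the markers therefore has a lower ratio in ApoE-/- by arithmetic alone. The ratios of *Csf2ra* and *Csf1* were lower in all 4 ApoE-/- aortas (−0.89 and −1.32 on average), as was that of *Il34* (−2.10). Those of *Csf2rb* (−0.85), *Csf2rb2* (−0.22) and *Csf3r* (0.31) overlapped. These other ratios were computed after the data were seen and were not tested.

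**Figure D5:**
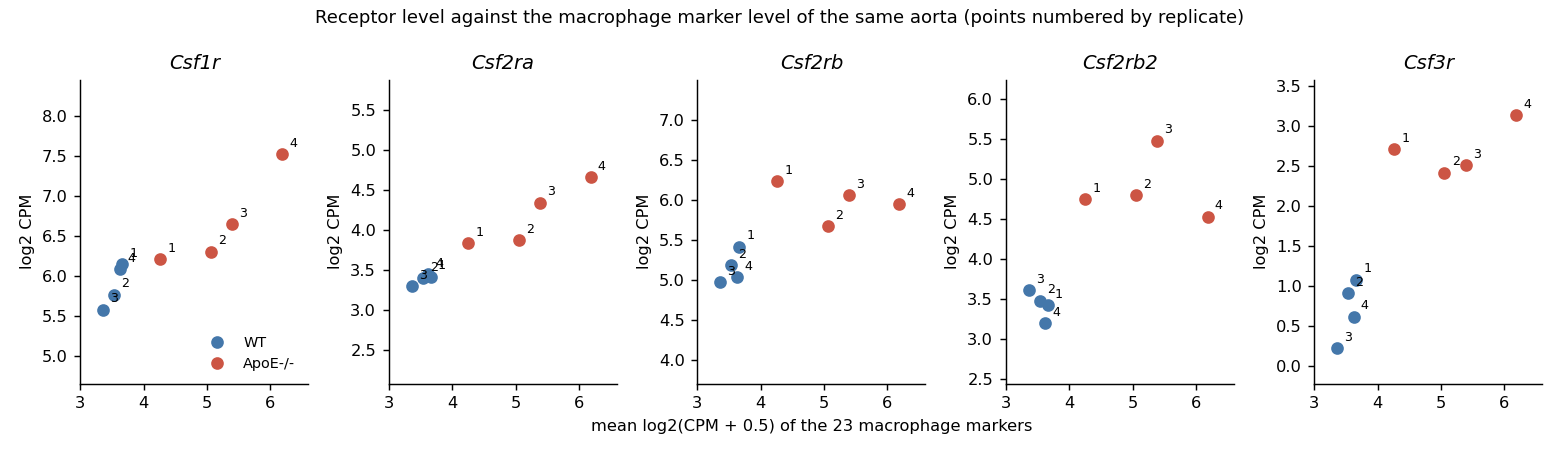
Log2 CPM of the 5 receptor chains (each panel spans the same number of log2 units) against the mean log2(CPM + 0.5) of 23 macrophage markers in each aorta, WT in blue and ApoE-/- in red, numbered by replicate. *Csf1r* and *Csf2ra* climb with the markers from ApoE-/- replicate 1 to replicate 4, while *Csf2rb2* and *Csf2rb* are not highest in replicate 4.

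Markers of other cells that can carry or make these proteins were read alongside. None of the genes tested from the monocyte (7), dendritic cell (9), osteoclast (6), mast cell and eosinophil (5), T cell (8) and B cell (6) lists passed in edgeR, and their summed levels overlapped between genotypes. An unadjusted p under 0.05 was reached by 3, 5, 2, 0, 2 and 3 of them, in that order, against 11.4% of all genes. DESeq2 called *Ccr2* higher, 1 of 7 monocyte genes, and *Clec9a* lower, 1 of 9 dendritic cell genes, against 4.97% of all genes in either direction. *Ccr2*, the receptor that guides inflammatory monocytes, had 28.8 ± 13.6 CPM in ApoE-/- and 11.3 ± 3.77 CPM in WT aortas (log2 1.34, adjusted p = 0.186 in edgeR and 0.0203 in DESeq2). *Tnfsf11*, the osteoclast factor RANKL, had 0.857 ± 0.482 against 0.121 ± 0.023 CPM, with all 4 WT libraries at 3 counts or fewer, and passed the filter through the ApoE-/- group alone, so that its DESeq2 call (adjusted p = 0.00392) says nothing of the osteoclast list. Mast cell genes were highest in ApoE-/- replicate 4, where the list of mast cells and eosinophils summed to 71.1 CPM against 10.6 to 31.9 CPM in the other 7 aortas. Of the wall lists, smooth muscle had a median of −0.11 (10 genes tested), endothelium −0.36 (10), fibroblasts 0.48 (10), adipocytes −0.45 (10), skeletal muscle −0.19 (7), keratinocytes and mesothelium −0.55 (5) and neurons with Schwann cells 0.65 (10), none with a gene called by edgeR. In edgeR an unadjusted p under 0.05 was reached by 5 endothelial, 3 fibroblast, 2 skeletal muscle and 1 of the keratinocyte and mesothelial genes and by 0 of the other 3 lists, against 11.4% of all genes. DESeq2 called 3 endothelial genes lower, *Cdh5*, *Kdr* and *Emcn* (log2 −0.37, −0.79 and −0.64), 3 fibroblast genes higher, *Lum*, *Col3a1* and *Col1a1* (2.34, 1.36 and 1.23), and 1 skeletal muscle gene, *Ckm*, lower. The DESeq2 shares over all genes were 4.97% in either direction and 3.23% higher. Cardiac muscle had a median of −2.61 over 10 genes and a sum of 181 to 367 CPM in ApoE-/- against 455 to 781 CPM in WT aortas, without overlap. EdgeR called none of the 10, and 9 had an unadjusted p under 0.05, against 11.4% of all genes. DESeq2 called 7 lower, against 4.97% of all genes in either direction. Of the 10, 9 did not overlap, a direction that held without overlap for 3.3% of all genes. The part of these tissues in the receptor differences was not tested.

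For each of the 7 genes, the genes whose log2 CPM was most like it over the 8 aortas were found by Pearson's r, which differences between genotypes alone can raise. The closest to *Csf3r* were *Ncf4* (r = 1.00, and 0.94 after subtracting each genotype's mean), *Wdfy4* (0.99 and 0.93) and *Plcb2* (0.99 and 0.92), and to *Csf1r* they were *C5ar1* (0.99 and 0.98), *Gmfg* (0.99 and 0.98) and *Cd200r1* (0.99 and 0.98). *Csf2ra* was closest to *Cybb*, *AB124611* and *Mmp2* (0.99 for all, 0.97 to 0.98 within genotypes) and *Csf2rb* to *Man1c1*, *Cx3cr1* and *Ms4a4c* (0.99 for all, 0.92 to 0.98). *Csf2rb2* was closest to *Sh3pxd2b*, *Smarcc1* and *Mgat5* (0.98, 0.98 and 0.98, and 0.88, 0.83 and 0.95 within genotypes). *Csf1* was closest to *Ereg*, *Plxnb2* and *Taok3* (0.99 for all, 0.98 to 0.99) and *Il34* to *Ccdc18* and *Palmd* (0.99 for both, 1.00 and 0.98). All were among the 3 highest of 15077 genes and are given as a description over 8 aortas.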

How the data were processed

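Libraries were stranded, ribodepleted total RNA, 1 per aorta, from 4 ApoE-/- and 4 WT mice. The authors deposited raw counts of uniquely aligned read pairs per gene for each mouse, without pooling or normalization. The submitters' processing notes name TopHat2 and HTSeq, without versions, and the builds GRCm38 and mm10. Closing lines of each file hold the pairs assigned to no gene and were left out, so that 27.9% to 35.6% of all pairs were used. Groups came from the sample titles. The members and gene lists were chosen with earlier results of these data known.

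Counts were fitted with edgeR 4.0.16 in R 4.3.3 (filterByExpr, TMM, robust quasi-likelihood F test with genotype as the only factor, two-sided, Benjamini-Hochberg over 15077 genes, threshold 0.05), a procedure tested on simulated data. SE is the log2 fold change divided by the square root of F. DESeq2 1.42.0 and limma-voom (limma 3.58.1) were alternatives, with other scalings, filters, a replicate block and each aorta left out. Single values were compared by exact permutation over 70 assignments. Likeness used log2 CPM with a prior count of 2. Exon lengths and coordinates came from GENCODE M21 (GRCm38), which held 21817 of the 21859 identifiers. Genes named were the members, genes of each list past the threshold, the 2 most abundant others of each signalling list, and further list genes chosen after their values were seen. Some genes that the rule names are not reported here.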

Additional observations from a re-analysis of the deposited data

Results flagged for a closer look

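The members' CPM, their 2 shares and the ratio of *Csf1r* to the macrophage markers were screened in each genotype for a library far from the other 3 of its group, over 24 groups of values, of which chance passes about 1.2. One did. For the log2 ratio of *Csf1r* to the mean log2 level of 23 macrophage markers, ApoE-/- replicate 1 stood at 1.95 while the other ApoE-/- aortas were at 1.25 to 1.34, a gap of 0.867 of the group's range. The same library had the lowest smooth muscle markers and the highest neuron and Schwann cell markers of the 8 aortas, and whether these bear on the ratio was not tested.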

How the results depend on the processing

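The directions of the 7 tested members did not change under any alternative, and the calls did. Over all genes edgeR called 70, DESeq2 725 and limma-voom 29, and of the members 2, 4 and 1. In limma-voom *Csf2rb2* was at 1.46 (adjusted p = 0.0605). DESeq2 called *Csf2ra* (0.82) and *Csf2rb* (0.82) in addition. Other scalings, filters and a non-robust fit gave 63 to 74 genes and the same 2 members.

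Leaving out each aorta in turn, in edgeR and DESeq2 together, gave 0 to 1543 genes and 0 to 7 members, the highest without ApoE-/- replicate 1 in DESeq2. In edgeR alone it gave 0 to 593 genes and 0 to 4 members, again the highest without ApoE-/- replicate 1. The log2 ranges were 0.25 to 0.52 for *Csf1*, 0.48 to 1.01 for *Csf1r*, −0.70 to −0.20 for *Il34*, 0.63 to 0.93 for *Csf2ra*, 0.74 to 0.93 for *Csf2rb*, 1.25 to 1.61 for *Csf2rb2* and 1.79 to 2.11 for *Csf3r*. *Csf1*, *Csf1r* and *Il34* passed in 1 of these fits, DESeq2 without ApoE-/- replicate 1.

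Replicate numbers belong to different mice, and the deviations of same-numbered aortas from their group means correlated at 0.06, −0.45, 0.32 and 0.16, so the numbers were not taken as pairs. With a replicate block, edgeR called 2 genes and 0 members (*Csf2rb2* 1.46, adjusted p = 0.0977; *Csf3r* 1.98, adjusted p = 0.121; 1723 genes had an unadjusted p under 0.05). For the ratio of *Csf1r* to the macrophage markers the block left −0.90, with an exact sign-flip permutation p of 0.125, the smallest that 4 pairs allow. That ratio was −0.57 with summed CPM and −0.50 with 6 markers, and −1.07 to −0.83 over leaving out each aorta. By exact permutation its p was 0.0286 without any 1 of the ApoE-/- aortas and rose to 0.0571 without any 1 of the WT aortas. The cause of these changes was not tested. Depth limits *Csf2* and *Csf3*, at 13 counts or fewer per library.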
